A study of Mus musculus with 8 samples.

Results

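Acetylation of histone H3 (H3ac) and binding of the histone deacetylase HDAC1 were examined at 10 genes that encode Polycomb proteins, namely Ezh1, Ezh2, Suz12, Eed, Jarid2, Rnf2, Ring1, Kdm2b, Pcgf1 and Cbx7, out of 21887 protein-coding genes. They were selected on the peaks listed inside each gene or within 10 kb of it in 4 peak lists, and every such peak was collected. A peak is a stretch of genome that a peak caller found enriched in a chromatin immunoprecipitation sequencing (ChIP-seq) library. The choice was made with results of the same lists known, so the values that follow are descriptions and carry no test.

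The cells derived from mouse embryonic stem cells of strain 129/Ola that were kept in N2B27, a medium without serum, on gelatin. Acetylated H3 was profiled after 2, 4 and 6 days of differentiation. HDAC1 was profiled after 2 days, as a FLAG-tagged protein. The labels name no other genotype or treatment, and do not say how the tagged HDAC1 was expressed. Each of the 4 ChIP libraries had an input library, whose data were not analysed here. With 1 library for each target and day, no difference between days or targets has a replicate check. The lists held 17368, 12945 and 5553 H3ac peaks on days 2, 4 and 6 and 5286 HDAC1 peaks, with median widths of 591, 792, 1898 and 311 bp. They give no read depth. In the marker lists, start-site H3ac lay at 5 of 8 pluripotency genes on day 2 and at 1 (Sox2) on days 4 and 6. Of 5 neural progenitor genes, 1, 4 and 2 had it on the 3 days, and of 6 mesendoderm and 4 trophoblast genes, 0 had it on any day.

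Polycomb proteins keep developmental genes silent, and they work in 2 families of complexes. Polycomb repressive complex 2 (PRC2) methylates histone H3 through Ezh2 or its relative Ezh1, with Suz12 and Eed as the other core subunits and Jarid2 as a partner that helps bring the complex to chromatin in stem cells. Polycomb repressive complex 1 (PRC1) attaches ubiquitin to histone H2A through Rnf2 or Ring1. In its canonical form a CBX protein such as Cbx7 reads the PRC2 mark, while in a variant form Pcgf1 and Kdm2b take part, and Kdm2b holds a zinc finger that binds unmethylated CpG dinucleotides. Kdm2b also makes a shorter protein from internal starts, which lacks the demethylase domain and retains that zinc finger.

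Sequence before the start is shown for genes with unlike H3ac at the start. Kdm2b had the top-ranked peaks of days 4 and 6 among the 10 genes, Jarid2, Eed and Suz12 had day 2 start-site peaks in the top 5% of the list, and Rnf2 and Ezh1 had H3ac peaks that lay wholly after the start. For 5 of them the 250 bases before the start are given, and for Kdm2b the 79 bases of that window that lie outside the annotated gene. Sequences are from RefSeq on GRCm38.p6, the assembly whose coordinates mm10 uses, and run 5′ to 3′ on the strand of the gene, with each CpG dinucleotide in capitals. Jarid2 and Suz12 are on the plus strand and the other genes on the minus strand.
Kdm2b (chr5:122989271-122989349): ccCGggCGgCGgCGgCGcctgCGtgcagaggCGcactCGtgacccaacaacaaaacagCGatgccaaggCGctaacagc
Jarid2 (chr13:44730524-44730773): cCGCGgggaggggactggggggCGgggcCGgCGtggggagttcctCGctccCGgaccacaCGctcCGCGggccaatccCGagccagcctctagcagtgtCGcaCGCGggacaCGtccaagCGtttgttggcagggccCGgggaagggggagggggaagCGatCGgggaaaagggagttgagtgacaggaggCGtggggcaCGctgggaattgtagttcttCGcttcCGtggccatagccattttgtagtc
Eed (chr7:89980977-89981226): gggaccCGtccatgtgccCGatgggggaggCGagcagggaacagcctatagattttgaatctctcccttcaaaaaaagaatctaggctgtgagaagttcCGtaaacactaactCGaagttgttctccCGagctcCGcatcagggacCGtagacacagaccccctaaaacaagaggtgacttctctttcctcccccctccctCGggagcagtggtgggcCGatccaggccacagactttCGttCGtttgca
Suz12 (chr11:79992856-79993105): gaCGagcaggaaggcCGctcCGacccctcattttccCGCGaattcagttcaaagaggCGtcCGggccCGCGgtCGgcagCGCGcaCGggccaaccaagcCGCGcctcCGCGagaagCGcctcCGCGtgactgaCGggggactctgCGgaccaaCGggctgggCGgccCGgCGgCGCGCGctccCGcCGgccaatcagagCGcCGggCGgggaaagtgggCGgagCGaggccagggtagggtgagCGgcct
Rnf2 (chr1:151500992-151501241): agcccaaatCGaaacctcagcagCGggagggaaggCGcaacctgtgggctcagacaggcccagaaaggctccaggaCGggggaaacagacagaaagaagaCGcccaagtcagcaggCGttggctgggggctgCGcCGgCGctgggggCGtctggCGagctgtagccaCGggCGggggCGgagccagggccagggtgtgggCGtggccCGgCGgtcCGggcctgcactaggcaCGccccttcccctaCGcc
Ezh1 (chr11:101226464-101226713): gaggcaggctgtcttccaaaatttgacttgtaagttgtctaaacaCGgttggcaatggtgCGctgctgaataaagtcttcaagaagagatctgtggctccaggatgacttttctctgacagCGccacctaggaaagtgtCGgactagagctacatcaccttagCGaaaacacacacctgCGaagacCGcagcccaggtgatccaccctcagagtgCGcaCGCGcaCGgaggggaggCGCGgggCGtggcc
The Kdm2b stretch held 10 CpG dinucleotides, and the others held 23, 12, 37, 20 and 14 in this order.

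Every one of the 10 genes had H3ac on day 2, and most had it on the later days. In the gene or within 10 kb, 10 of 10 had H3ac on day 2, 9 on day 4 and the same number on day 6, beside 54.7%, 50.5% and 30.8% of all protein-coding genes. The exceptions were Ezh1 on day 4 and Pcgf1 on day 6, and 8 genes had a peak on all 3 days, beside 27% of all genes. Within 1 kb of a start site the numbers were 10, 8 and 8, beside 41.6%, 39.4% and 23.7%, and 7 genes had such a peak on every day, beside 19.2%. HDAC1 had a peak in or within 10 kb of 5 genes (Ezh1, Ezh2, Ring1, Kdm2b and Cbx7), beside 21.5% of all genes, and within 1 kb of a start of 1 gene (Ezh2), beside 9.37%. At least 2 peaks in or within 10 kb were listed for 8, 5 and 2 genes on days 2, 4 and 6, beside 31.9%, 24.6% and 6.38% of all genes, and for 1 gene (Ezh1) with HDAC1, beside 4.6%. Because the genes were selected on these peaks, nothing is read from the distance to those shares. Long genes offer more room for peaks. The median length was 38183 bp for the 10 genes and 17169 bp for all genes. Of the 8 genes of at least 20 kb, 8, 7 and 8 had H3ac on days 2, 4 and 6 and 4 had HDAC1, beside 63.5%, 59.2%, 37.7% and 26.6% of all genes of that length. The collected peak nearest to the 10 kb limit lay 7742 bp from Ring1 (day 4, score 61.32), and the nearest beyond it lay 12785 bp from Eed (day 2, score 61.88).

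**Figure D1:**
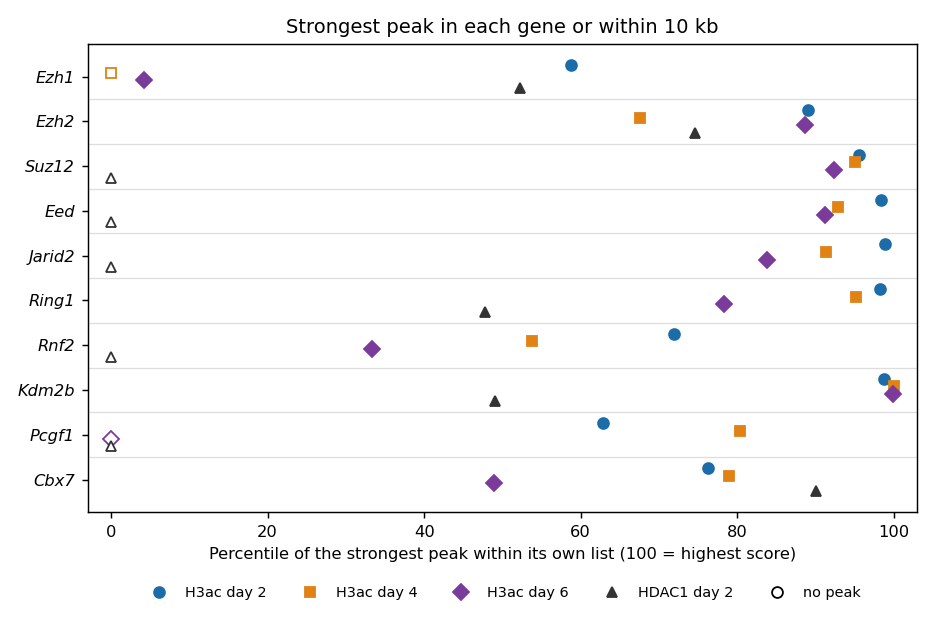
Percentile of the highest-scoring peak in each gene or within 10 kb, ranked within its own list (x axis, 100 is the highest score), for 10 genes (y axis) and 4 lists. Open symbols at 0 mark genes without a peak, as for Ezh1 on day 4. On days 2, 4 and 6 Kdm2b stood at 98.7, 100 and 99.9, and Rnf2 at 71.9, 53.8 and 33.3.

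The strongest H3ac peak of each gene that had one stood between percentiles 58.8 and 98.9 of its list on day 2, 53.8 and 100 on day 4, and 4.2 and 99.9 on day 6. For HDAC1 the range was 47.8 to 90.1. Scores are the authors' own, on a scale that is not stated, so each is read only by its rank within its list. Ranks in lists of different length show no change between days. A start-site peak among the top 5% of its list by score was held by 4 genes on day 2 (Suz12, Eed, Jarid2 and Kdm2b) and by Kdm2b alone on days 4 and 6, beside 4.55%, 3.34% and 1.38% of all genes. No HDAC1 peak of that strength lay at a start of the 10, beside 0.306%.

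Of the catalytic pair of PRC2, Ezh2 had start-site H3ac on all 3 days and Ezh1 on days 2 and 6. Ezh2, which encodes the main methyltransferase of dividing cells, lies on chromosome 6 from 47530274 to 47595270. Its start-site peaks scored 238.17 (rank 1896) on day 2, 150.45 (rank 4197) on day 4 and 355.61 (rank 634) on day 6. The day 2 peak reached from 1118 bp before the start to 71 bp after it, the day 4 peaks stood on both sides of a gap of 494 bp that held the start, and the day 6 peak was 3183 bp wide and covered it. The noncoding gene F830010H11Rik starts 179 bp away on the opposite strand, inside the same day 4 gap, so these peaks lie at a pair of divergent starts. A weak day 2 peak inside Ezh2 (score 55.34, rank 14713) was not overlapped on the later days.

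Ezh1, the relative of Ezh2 that serves mainly in cells that no longer divide, lies on chromosome 11 from 101191115 to 101226463. It had 1 peak on day 2 (score 94.20, rank 7159, 536 bp wide), none on day 4 and 1 on day 6 (score 53.76, rank 5323 of 5553). Both began inside the gene, 305 and 41 bp after the start. The nearest day 4 peak lay 20060 bp from the start. Of the 9 genes with a day 6 peak, Ezh1 held the lowest rank.

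Suz12 and Eed, the scaffold of PRC2 and the subunit that reads the methyl mark, had their strongest H3ac peaks at percentile 91.2 or higher on every day. Suz12, on chromosome 11 from 79993106 to 80034123, had start-site peaks of score 361.53 (rank 784), 395.46 (rank 654) and 423.24 (rank 423) on days 2, 4 and 6. On day 2 its start lay in a gap of 630 bp between a stronger peak inside the gene and a weaker one before it (score 174.19), and on day 4 the single peak began 216 bp after the start. Eed, on chromosome 7 from 89954654 to 89980976, had peaks of score 539.35 (rank 283), 341.69 (rank 914) and 395.51 (rank 490). Those of days 2 and 6 covered its start. On day 4 that peak began 430 bp after the start, which a separate, weaker peak covered (score 146.44, rank 4334). The day 6 peak of Eed was 3618 bp wide. Neither gene had HDAC1 within 10 kb, and the nearest HDAC1 peaks lay 89022 and 39673 bp from their starts.

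**Figure D2:**
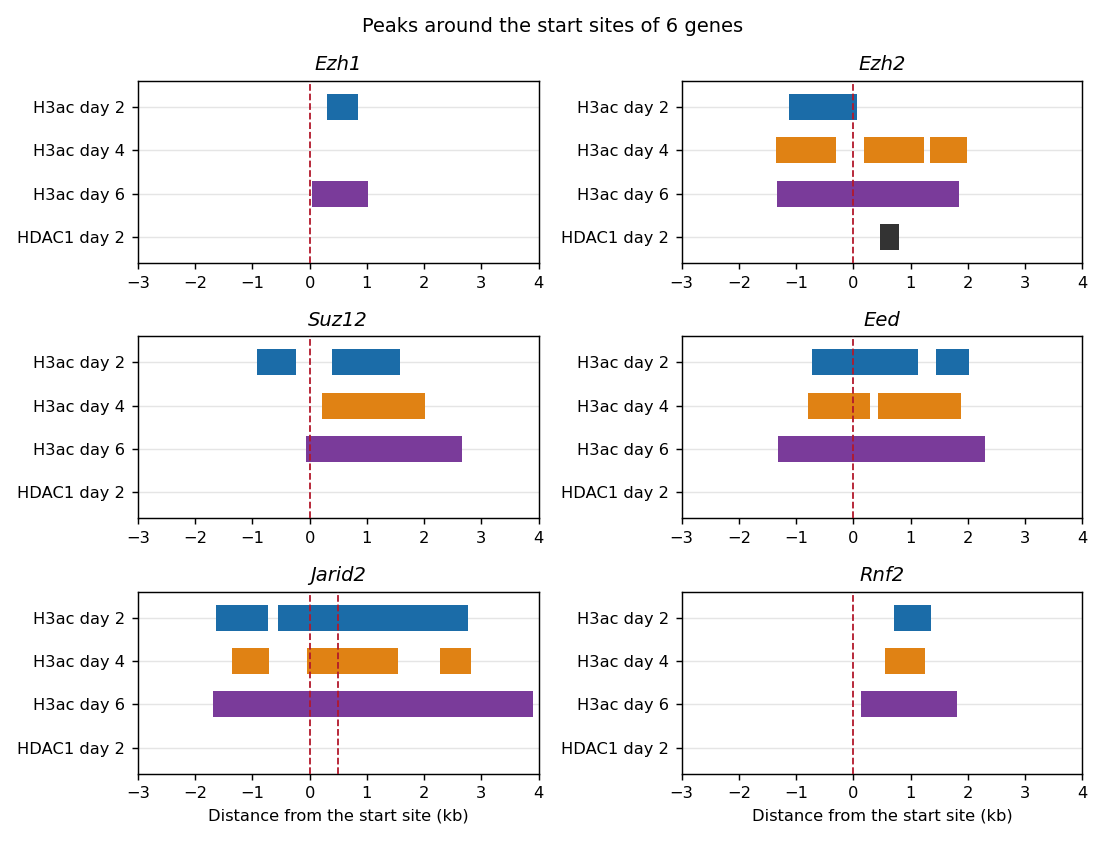
Extent of every peak (bars) around the start sites (dashed lines) of 6 genes, in kb from the most upstream start with positive values inside the gene, for the 4 lists on the y axis. The H3ac peaks of Rnf2 and Ezh1 lay wholly after the start. The single HDAC1 bar is that of Ezh2, 468 bp after its start.

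Jarid2, on chromosome 13 from 44730774 to 44921643, had the highest day 2 score of the 10 genes. Its 3326 bp day 2 peak scored 611.86 (rank 193) and was rank 23 by width of 17368. The start-site peaks of days 4 and 6 scored 312.07 (rank 1132) and 295.00 (rank 902), the latter 5608 bp wide and rank 56 by width of 5553. A start 497 bp further into the gene was covered by the same peaks. Day 2 also listed 5 peaks deep in the gene with scores from 52.95 to 83.95. One of these, at chromosome 13 from 44754959 to 44755712 (score 59.42), was overlapped by a day 6 peak (score 60.29) and not by a day 4 peak, and the other 4 were overlapped on neither day. A day 4 peak 57780 bp into the gene (score 52.36) overlapped no peak of the other days. No HDAC1 peak lay within 10 kb.

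The catalytic subunits of PRC1, Rnf2 (RING1B) and Ring1 (RING1A), both had start-site H3ac on every day. Rnf2, on chromosome 1 from 151469398 to 151500991, had 1 peak on each day, of score 129.21 (rank 4881), 110.61 (rank 5982) and 89.81 (rank 3703 of 5553). These peaks began 713, 560 and 134 bp after the start, so on no day did a listed peak cover it. Ring1, a short gene on chromosome 17 from 34020792 to 34024680, had start-site peaks of score 110.48 (rank 5897), 354.99 (rank 837) and 247.21 (rank 1204). On day 2 the peak ended 77 bp before the start, and on days 4 and 6 a peak covered it. On days 2 and 4 the highest-scoring peaks within 10 kb of Ring1 were not at its own start. They scored 517.37 on day 2 and 400.41 on day 4 and lay at the divergent starts of Slc39a7 and Rxrb, 7010 and 7132 bp from the Ring1 start. The 4694 bp day 6 peak at Ring1 also covered the start of its neighbour H2-Ke6.

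Kdm2b, the CpG-binding subunit of variant PRC1, held a start-site peak of rank 4 in the lists of days 4 and 6. The gene lies on chromosome 5 from 122870664 to 122989270. On day 2 its upstream starts, at 122989099 and 122988507, were covered by a 1633 bp peak of score 574.91 (rank 226 of 17368), with 2 further peaks before them (249.29 and 115.36) and 1 after (92.47). On day 4 a 4246 bp peak of score 1720.13 ranked 4 of 12945 by score and 8 by width, and a second peak of 3234 bp before the start scored 827.57 (rank 59). On day 6 a single 7556 bp peak of score 1812.54 ranked 4 of 5553 by score and 11 by width. It spanned the gaps of the earlier days, from 3484 bp before the most upstream start to 4071 bp after it. Within 5 kb of the start, listed H3ac peaks covered 4264, 7480 and 7576 bp on days 2, 4 and 6.

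**Figure D3:**
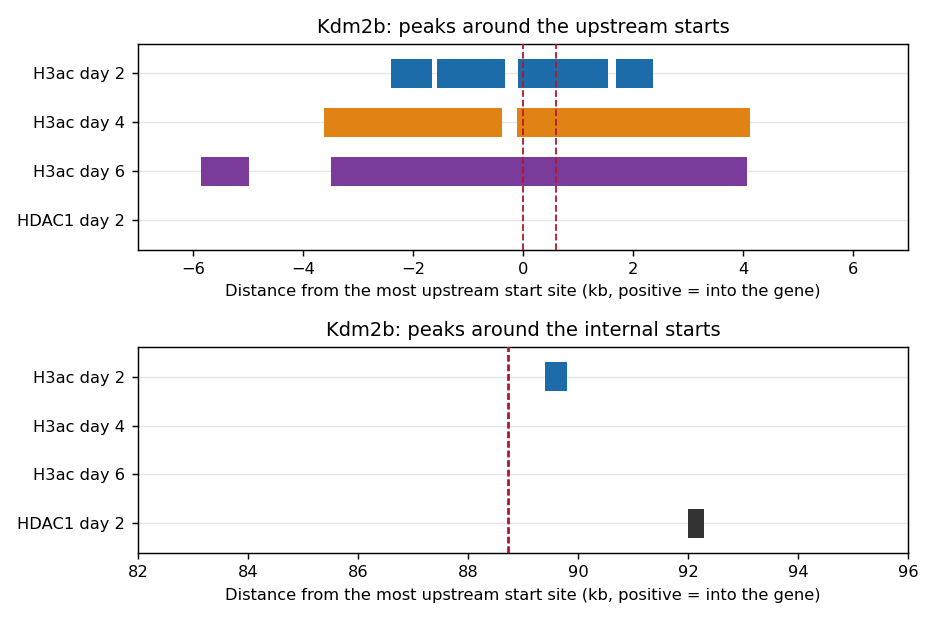
Extent of every peak (bars) around the upstream starts (upper panel) and internal starts (lower panel) of Kdm2b, in kb from the most upstream start, for the 4 lists on the y axis. Dashed lines mark start sites. At the upstream starts the day 4 and day 6 peaks reached 4246 and 7556 bp. In the lower panel a day 2 H3ac peak lay 657 bp and an HDAC1 peak 3259 bp after the nearer internal start. No H3ac of days 4 or 6 was listed there.

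On days 2 and 4 a gap of 240 and 274 bp lay just before the most upstream Kdm2b start. It held the start of the noncoding gene A930024E05Rik, 255 bp away on the opposite strand, so the peaks before the Kdm2b start lie at the beginning of that gene too. The internal starts of Kdm2b, at 122900367 and 122900350, had a narrow day 2 peak of 385 bp (score 95.72, rank 7034) beginning 657 bp after the nearer one. On days 4 and 6 the nearest H3ac peaks lay 48820 and 84661 bp from the internal starts. An HDAC1 peak of 280 bp (122896812 to 122897091, score 64.95, rank 2690) lay 3259 bp after the nearer internal start, 2218 bp from the day 2 H3ac peak. A day 2 peak of score 52.90 lay 26650 bp before the internal starts. A day 6 peak of score 86.56 lay 4981 bp before the most upstream start, near A930024E05Rik.

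Pcgf1, the partner of Kdm2b in variant PRC1, lies on chromosome 6 from 83077552 to 83080855. It is not in the start-site table, so peaks were placed by its ends. Its lower-coordinate end had a day 2 peak of score 102.52 (rank 6449) with a second one next to it (77.53), and a day 4 peak of 1795 bp with score 208.51 (rank 2538). Another day 2 peak (75.95) lay 6544 bp beyond the other end and was overlapped on neither later day. No day 6 H3ac and no HDAC1 peak was listed within 10 kb.

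Cbx7, a chromatin reader of canonical PRC1 in pluripotent cells, had H3ac at 1 place on days 4 and 6 and at several on day 2. The gene lies on chromosome 15 from 79915804 to 79971143, with an annotated start at 79932646. On day 2 it had 7 H3ac peaks. Genes with at least 6 made up 1.37% of all genes and were Jarid2, Kdm2b and Cbx7 among the 10. That limit is the count of Kdm2b itself, so nothing is read from the share. Jarid2, Kdm2b and Cbx7 are 190870, 118607 and 55340 bp long, beside a median of 17169 bp for all genes. No share for genes of such length was computed. The day 2 peaks of Cbx7 lay in several places. Of the 7, 5 formed a row from 2461 bp before the annotated start to 1446 bp after it, with scores from 53.22 to 147.55. No day 4 or day 6 peak overlapped them, and the nearest lay 36867 and 36789 bp from that start. A sixth (score 52.90) lay 4933 bp into the gene, without overlap on the later days. The last day 2 peak (79970115 to 79970994, score 134.27) lay at the far upstream end of the gene. There day 4 had a peak of score 199.33 (rank 2736) and day 6 a peak of score 121.55 (rank 2836 of 5553). HDAC1 had its highest-ranked peak among the 10 genes at the same end (79970828 to 79971254, score 125.34, rank 526 of 5286). It overlapped the H3ac peak of every day at this end. The start-site table holds no start at this end, so by start site alone Cbx7 counts as unmarked on days 4 and 6, and by gene end it counts as marked.

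**Figure D4:**
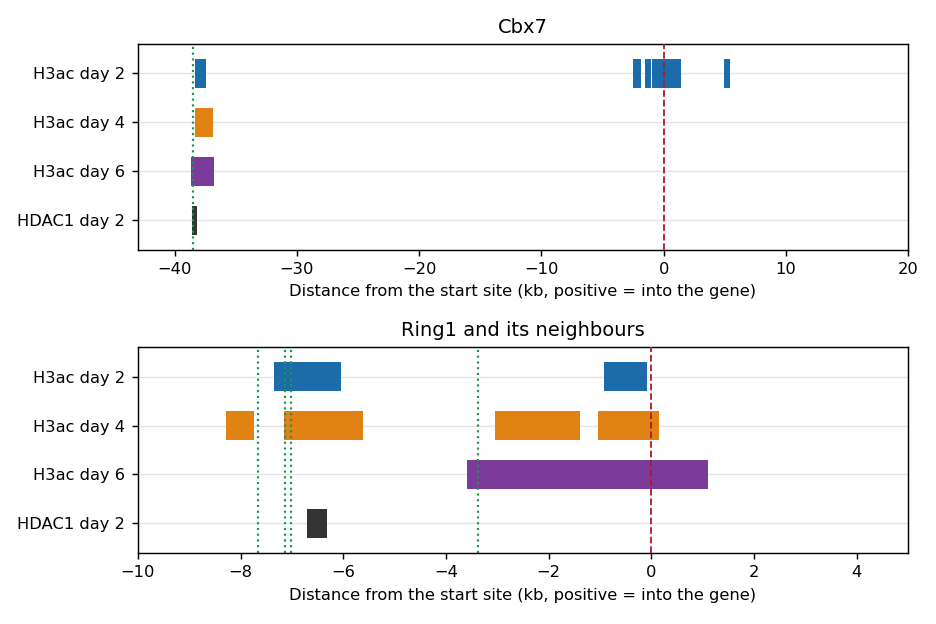
Extent of every peak (bars) at Cbx7 (upper panel) and Ring1 (lower panel), in kb from the annotated start (dashed red line), for the 4 lists on the y axis. Dotted green lines mark the upstream end of the Cbx7 gene and the starts of Ring1's neighbours H2-Ke6, Slc39a7 and Rxrb. H3ac was listed at the upstream end of Cbx7 in all 3 lists and at its annotated start on day 2 alone.

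HDAC1, which removes acetyl groups from histones, had 6 peaks in or within 10 kb of the 10 genes. Of these, 1 lay within 1 kb of an annotated start of the 10 genes themselves. The scores of the 6 peaks ran from 62.22 to 125.34. The Ezh2 peak (47594237 to 47594562, score 86.49, rank 1346) lay 468 bp after the start. It was 397 bp from the nearest day 2 H3ac peak and was overlapped by H3ac peaks of days 4 and 6. Ezh1 had 2 HDAC1 peaks (66.19 and 62.22), 22533 and 4755 bp from the nearest day 2 H3ac. The peak near Ring1 (score 64.23) lay 6321 bp before its start, inside the day 2 and day 4 H3ac peaks shared by Slc39a7 and Rxrb. In all, 2 of the 6 HDAC1 peaks (33.3%, exact binomial interval 4.33 to 77.7%) overlapped a day 2 H3ac peak, beside 27.7% of the whole HDAC1 list. In the other direction 2 of 33 day 2 H3ac peaks (6.06%, 0.743 to 20.2%) overlapped HDAC1, beside 8.26% of the whole list. The 95% intervals cover counting error only, and peaks of 1 gene are not independent of each other.

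The overlap of H3ac peaks between days is given for start-site peaks and for the others. The 10 genes held 33, 19 and 11 H3ac peaks on days 2, 4 and 6. Of the 17 day 2 peaks within 1 kb of a start, 11 (64.7%, interval 38.3 to 85.8%) overlapped a day 4 peak and 10 (58.8%, 32.9 to 81.6%) a day 6 peak. Of the 16 farther away, 5 (31.2%, 11 to 58.7%) overlapped a day 4 peak and 5 a day 6 peak. Those with a day 4 overlap lay 1438 bp from the Eed start and 1103 and 1664 bp from Kdm2b starts. The others were at Slc39a7 and Rxrb near Ring1 and at the upstream end of Cbx7. On day 6 a peak deep in Jarid2 took the place of that near Ring1. The overlap is thus mostly of peaks beside a start or at a gene end. Several of these peaks share a gene, such as the 7 each at Jarid2 and Cbx7. Of all 33 day 2 peaks, 16 (48.5%, 30.8 to 66.5%) overlapped a day 4 peak and 15 (45.5%, 28.1 to 63.6%) a day 6 peak. Over the whole day 2 list the shares were 50.2% and 35%. Of all 11 day 6 peaks, 10 (90.9%, 58.7 to 99.8%) overlapped a day 2 peak, beside 79.5% of the whole day 6 list. For start-site peaks alone, no share over all genes was computed. Of the 8 day 6 start-site peaks, 8 overlapped a day 2 peak. Their median width was 3400 bp, beside 1963 bp for day 6 start-site peaks of all genes, and on day 2 the medians were 840 and 700 bp.

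Coverage on both sides of the start was compared, using the start with most listed coverage within 2 kb where a gene has several. Among the genes with a known start and a start-site peak, listed H3ac covered more of the 2 kb after the start than of the 2 kb before it at 6 of 9 genes on day 2, 6 of 7 on day 4 and 5 of 8 on day 6. The day 2 count includes Kdm2b by its most upstream start (1660 bp before, 1844 after), and at its start at 122988507 the order was the opposite (1760 before, 1612 after). On day 6 both stretches of 2 kb were fully covered at Jarid2 and Kdm2b, and such ties were not counted as more after the start. For Jarid2 the tie is at its start at 44731271, and at its start at 44730774 coverage was 1696 bp before and 2000 after. Ring1 alone had more before the start on day 6 (2000 bp before, 1097 after). Over all protein-coding genes the shares with more after the start were 72.1%, 76.4% and 77.4%, with ties treated the same way. The start base itself lay inside a peak at 5, 4 and 6 genes (55.6%, 57.1% and 75%), beside 52.2%, 53.5% and 86.8% of all genes with a start-site peak. Ring1 on day 2 had 840 bp covered before the start and 0 after, and Rnf2 had 0 before and 651 after.

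The genes most like each of the 10 were sought over the 4 lists, by the distance between the percentiles of the strongest peak. Eed was nearest to Rprd2 (distance 0.84 percentile points), Jarid2 to Ftsj3 (1.12), Suz12 to Hmgb1 (1.41), Rnf2 to Atg3 (1.87) and Kdm2b to Hnrnpul2 (2.93). Ezh1 (Manba, 6.60), Cbx7 (Dll1, 7.03) and Ezh2 (Nup155, 9.12) had their nearest genes farther away. Ring1 was nearest to H2-Ke6 and Pcgf1 to Lbx2 at distance 0.00, because these neighbours lie within 10 kb of the same peaks.

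The other 45 genes of a list of 55 Polycomb pathway genes were marked at their starts in 35, 33 and 24 cases on days 2, 4 and 6, and by HDAC1 in 8. Those are 77.8%, 73.3%, 53.3% and 17.8%, beside 41.6%, 39.4%, 23.7% and 9.37% of all genes. By role, start-site H3ac was listed on days 2, 4 and 6 at 5, 4 and 4 of 7 other PRC2 genes, 4, 2 and 3 of 5 PCGF genes, 4, 2 and 1 of 4 CBX genes and 2, 3 and 4 of 4 PHC and SCM genes. Variant PRC1 genes gave 9, 10 and 3 of 13, genes of the H2A deubiquitinase 5, 6 and 4 of 6, and genes that oppose Polycomb, which remove the PRC2 mark or methylate another lysine, 6, 6 and 5 of 6. HDAC1 start-site peaks lay at 4 of those 6 (Kdm6b, Kmt2a, Kmt2c and Kmt2d), at Mtf2 and Epop of PRC2, at Cbx2 and at Fbrsl1. Kdm6b, Epop and Cbx2 are not in the start-site table, so their HDAC1 peaks are known only to lie near a gene end.

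**Figure D5:**
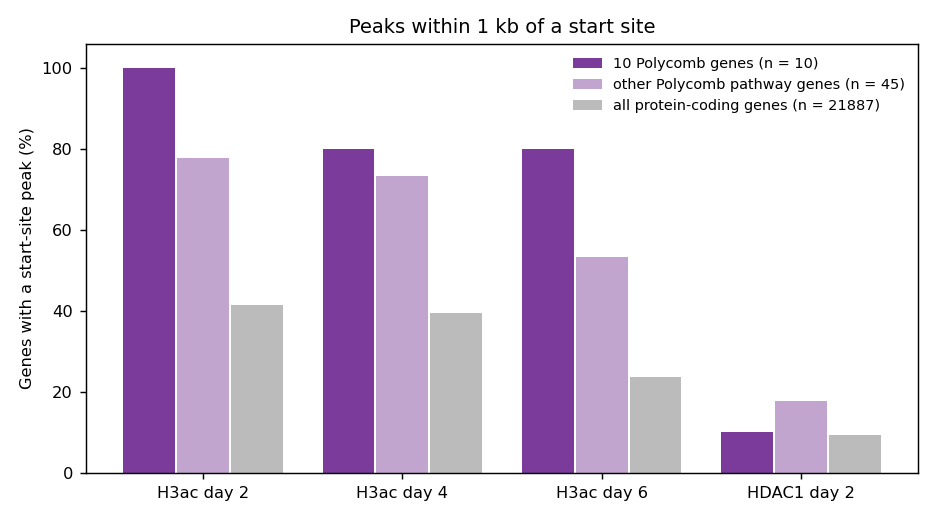
Percent of genes with a peak within 1 kb of a start site (y axis) in the 4 lists (x axis), for the 10 Polycomb genes, the other 45 genes of the pathway list and all 21887 protein-coding genes. The day 6 shares were 80%, 53.3% and 23.7%, and for HDAC1 they were 10%, 17.8% and 9.37%.

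Phc1, a PRC1 subunit of pluripotent cells, had the top day 2 start-site peak of the list (score 1383.78, rank 8 of 17368), with 125.09 (rank 5237) on day 4 and 376.11 (rank 555) on day 6. Asxl2 of the deubiquitinase scored 764.34 (rank 105) on day 2 and 389.78 on day 4, and Pcgf3 scored 377.66 and 404.82, with no day 6 start-site peak at either. Mtf2, a PRC2 partner, scored 501.61, 365.39 and 105.76, and Pcgf2 of canonical PRC1 scored 342.32, 357.79 and 346.17. Among the CBX genes Cbx6 scored 266.64, 220.55 and 55.66, and Cbx2 scored 68.37 and 53.84 on days 2 and 4 with no day 6 start-site peak. Of the variant PRC1 group, Usp7 scored 147.57, 173.80 and 281.37 (ranks 4116, 3459 and 975). Fbrs scored 184.43, 68.77 and 262.68 (ranks 2956, 9036 and 1081). Bap1, the deubiquitinase itself, scored 317.57, 151.52 and 101.03 and its partner Asxl1 265.51, 117.89 and 54.58. The opposing genes Kmt2d (315.88, 360.88 and 179.04), Kmt2b (203.67, 272.45 and 156.29) and Kdm6a (239.51, 137.37 and 260.00) were marked on every day. The peaks of Cbx2 and Kmt2b were placed by gene ends, as neither is in the start-site table. The sizes of these scores are not compared between days, as the median score of the list itself was 80.21, 101.61 and 123.73 on days 2, 4 and 6.

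A start-site peak on day 4 or 6 with none on day 2 was found at 7 of the 55 pathway genes, beside 7.16% of all genes, and at 0 of the 10. They were Bmi1 (day 6, score 78.35), Phc2 (296.95 and 210.83 on days 4 and 6), Scmh1 (day 6, 411.25), Yaf2 (120.74 and 53.24 on days 4 and 6), E2f6 (day 4, 77.81), Auts2 (day 4, 56.55) and Asxl3 (day 4, 70.54). Yaf2, Auts2 and Asxl3 are not in the start-site table, so their peaks are known only to lie near a gene end. In or within 10 kb, day 2 listed 1 H3ac peak at Bmi1, 1 at Yaf2, 2 at Auts2 and 1 at Asxl3. Phc2, Scmh1 and E2f6 had no day 2 H3ac peak within 10 kb, while Phc1 had 9. The reverse, a day 2 peak with none on day 6, was found at 17 of the 55, beside 20.8% of all genes, and among the 10 at Pcgf1 and Cbx7. Phf1, Phf19 and Bcorl1 had no start-site peak in any list. In or within 10 kb, Phf1 had 4 H3ac peaks on day 2 and 2 on day 4, Bcorl1 had 1 on day 2, and Phf19 had none.

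CpG content was computed over the start sequences. Over 300 bases (250 before to 50 after), 13 starts of 9 genes had an observed over expected CpG ratio from 0.76 (Eed and Rnf2) to 1.09 (Suz12), with a median of 0.91, beside 0.57 for 21263 starts of all protein-coding genes. Of all starts with a ratio of at least 0.7, 73%, 71.3% and 46% had H3ac within 1 kb on days 2, 4 and 6, and of those under 0.4 the shares were 6.53%, 5.08% and 2.75%. HDAC1 gave 16.3% and 1.48%. Ezh1, with day 2 rank 7159, had 0.88, and Eed, with day 2 rank 283, had 0.76. The order was the opposite for Suz12, with day 2 rank 784 and 1.09, and Rnf2, with day 2 rank 4881 and 0.76. Whether ratio and rank go together was not tested. The internal starts of Kdm2b had 1.00, and its upstream starts had 0.97 and 0.79.

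Exact matches to 8 short motifs were counted on both strands of the same windows. GGGCGG was in 9 of the 13 windows, beside 46.2% of all, and CCAAT in 8, beside 38.2%. The windows of the internal Kdm2b starts overlap each other, as do their matches. TTTGGCGC, a form of the E2F motif, was in 1 window, that of Ezh2, from 3 to 10 bp after the start, beside 0.635% of all windows. CACGTG, TTTCGCGC and CCGGAAG were in 0 of the 13, beside 7.84%, 0.451% and 11.6%, as were 10-base forms of the NRF1 and YY1 motifs, beside 1.33% and 1.21%. A match is no measure of binding, and no match says only that these letters are not in the window.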

How the data were processed

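Peaks of 4 ChIP-seq libraries were used, 1 list for each of H3ac on days 2, 4 and 6 and HDAC1 on day 2. Bowtie 0.12.8 and mm10 are named, per the submitters' processing notes. The deposited lists give chromosome, start, end, name and a score. The deposited score is the authors' peak score, from 50 up, on a scale not stated. Peak names begin with MACS, a peak caller, per the deposited files, but which version ran, at what cut-off and with which input is not stated in the labels. Called peaks depend on depth and on these settings, so a gene without a listed peak can still be acetylated or bound.

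Genes and 21263 start sites came from RefSeq tables of GRCm38.p6. Of 10 Polycomb genes 9 matched the start-site table, and for genes without an entry (Pcgf1 and 11 other pathway genes) either gene end stood in for the start. Overlap meant at least 1 bp, coordinates are 1-based, and intervals are exact binomial (Clopper-Pearson, 95%). On simulated data 200 planted genes of 2450 searched were called with 0 false calls. The genes searched all had a start entry and stood apart from other genes. The check is thus of the code, and not of calls at close neighbours such as those of Ring1 and Pcgf1. Scripts ran in Python 3.11.15.

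The members, lists and rules were chosen with earlier results of these data known. All 10 genes were named, and of the pathway list up to 3 genes per role by start-site score, genes with no start-site peak in any list, and genes marked on day 4 or 6 alone. HDAC1-marked genes beyond that rule were named after their values were seen. Likeness excluded pathway genes. Alternatives were the window, a higher score limit, lists of equal length, gene ends and stricter overlap.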

Additional observations from a re-analysis of the deposited data

How the results depend on the processing

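Of 64 alternative counts, 55 lay within 1.5 times the count reported and 9 did not. With the higher-scoring 50% of a list, the 10 genes with HDAC1 in or within 10 kb numbered 3 in place of 5 (Ezh1, Ezh2 and Cbx7), pathway genes with a start-site peak numbered 18 in place of 32 on day 6 and 5 in place of 9 for HDAC1, and HDAC1 peaks overlapping day 2 H3ac numbered 1 in place of 2. With the 5286 top-scoring peaks of each list, pathway genes numbered 29 in place of 45 on day 2 and 26 in place of 41 on day 4 and 29 in place of 32 on day 6. With gene ends, start-site HDAC1 was found at 2 of the 10 genes, Cbx7 being added. An overlap of at least 50% of the shorter peak, or a window of 1 kb, left 1 HDAC1 peak on day 2 H3ac. With equal lists the 10 genes had H3ac in or within 10 kb in 8 cases on each day, and Ezh1 and Pcgf1 had none on day 2. Start-site H3ac was then found at 7 of the 10 on each day, in place of 10, 8 and 8. With the higher-scoring 50% of the day 6 list, 6 of the 10 had H3ac in or within 10 kb in place of 9. Peak lists without read depth limit every count. No paired analysis was possible because each target and day had 1 ChIP library.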
